A study of Mus musculus with 2 samples.

Results

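The subunits of complexes III and IV of the respiratory chain, of cytochrome c and of the ATP synthase were followed through 2 libraries of single regulatory T (Treg) cells. Members were taken by name, without use of their values: every gene whose symbol starts with Uqcr, Cox4 to Cox8, Atp5, mt-Co, mt-Cytb or mt-Atp, with Cyc1 and Cycs added. This gave 51 of the 32285 genes in the files. Of these, 45 are encoded in the nucleus, 9 for complex III, 18 for complex IV, 17 for the ATP synthase and 1, Cycs, for cytochrome c. The other 6 are encoded in mitochondrial DNA: mt-Cytb of complex III, mt-Co1, mt-Co2 and mt-Co3 of complex IV, and mt-Atp6 and mt-Atp8 of the ATP synthase.

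Complex III passes electrons from ubiquinol to cytochrome c, and complex IV passes them from cytochrome c to oxygen. Both pump protons across the inner mitochondrial membrane, and the ATP synthase uses the return of those protons to make ATP. Each of the 3 enzymes is built from subunits of both genomes, so their assembly draws on transcripts made in the nucleus and in the mitochondrion. Complex IV also needs copper in its catalytic core, and copper is named in the title of the series.

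Mouse Treg cells, which restrain immune responses, were labelled with MitoTracker, a fluorescent dye taken up by mitochondria, and sorted into a dye-high (Mito-high) and a dye-low (Mito-low) population. Each population gave 1 library from 12000 loaded cells with a 10x Genomics kit that reads the 5′ ends of transcripts. Both groups carry the same cell type label. No source used here gives the strain, sex, age, tissue, genotype, number or treatment of the mice. Each captured RNA molecule was counted by its unique molecular identifier (UMI). Barcodes with at least 500 detected genes and at most 20% of UMIs from mt- genes were kept as cells. A cell was called resting if it held at least 1 UMI of Igfbp4, effector if at least 2 of the 3 genes Ccl5, Il10 and Klrg1 were detected, and other if it met neither rule.

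The Mito-high library had 12217 kept barcodes, 2765 of them resting, 165 effector and 9281 other, and the Mito-low library had 11679, with 185, 1530 and 9961. Another 6 and 3 barcodes met both rules and were put in no class. Median depth was 6402, 8736 and 6008 UMIs in resting, effector and other Mito-high cells, and 5582, 5288 and 4558 UMIs in Mito-low cells. All 7 T cell and all 10 Treg markers reached 20 CPM, that is UMIs scaled to a common total, in at least 1 group of every comparison. Foxp3, the defining factor of Treg cells, was at 26.5, 25.8 and 18 CPM in resting, other and effector Mito-high cells and at 35.6, 40.5 and 44.4 CPM in Mito-low cells. Markers of CD8 T, natural killer, erythroid, platelet and muscle cells stayed below 20 CPM. B cell markers summed to between 7.13 and 26.7 CPM, myeloid ones to between 65.2 and 125 CPM with only Cst3 of 6 above 20 CPM, and stromal ones to between 148 and 239 CPM, from Pecam1 and Epcam. Genes of resting T cells chosen as a check of the classes were at least 1.5-fold lower in effector than in resting cells for 10 of 10 in both libraries. Of all genes, 8.8% in Mito-high and 8.04% in Mito-low cells were that much lower. The effector genes were higher for 12 of 12 measured in Mito-high and 13 of 13 in Mito-low cells, where 24.9% and 23.5% of all genes were at least 1.5-fold higher. Both lists were chosen with earlier results of these data known. The libraries shared 35 sequences of kept barcodes, and leaving these out moved no median of the members beyond its counting interval. With 1 library per group there was no spread between replicates and no test, and all 95% intervals given cover counting error only. Cells of 1 library are not replicates, and fewer transcripts per cell cannot be told apart from a different mix of cells within a class.

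The summed nuclear transcripts of the 3 enzymes took a larger share of UMIs in effector than in resting cells of both libraries, and a larger share in Mito-high than in Mito-low cells of every class. In Mito-high cells they made up 1.19% of UMIs in resting (exact interval 1.187 to 1.196), 1.34% in other and 1.59% in effector cells (1.58 to 1.61). In Mito-low cells the shares were 1.06% (1.04 to 1.08), 1.19% and 1.28% (1.27 to 1.29). The shares ranked in the order resting, other, effector within each library, and the lowest of the 6 groups was Mito-low resting. The 6 mt-encoded members together did not follow that order. They made up 2.66%, 2.83% and 2.85% of UMIs in resting, other and effector Mito-high cells. In Mito-low cells the shares ran the other way, with 2.67%, 2.62% and 2.47%. For each mt-encoded UMI there were 0.449 nuclear UMIs in resting, 0.474 in other and 0.561 in effector Mito-high cells, and 0.399, 0.454 and 0.517 in Mito-low cells. This ratio, which does not depend on how libraries are scaled, was higher in effector than in resting cells of both libraries.

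**Figure D1:**
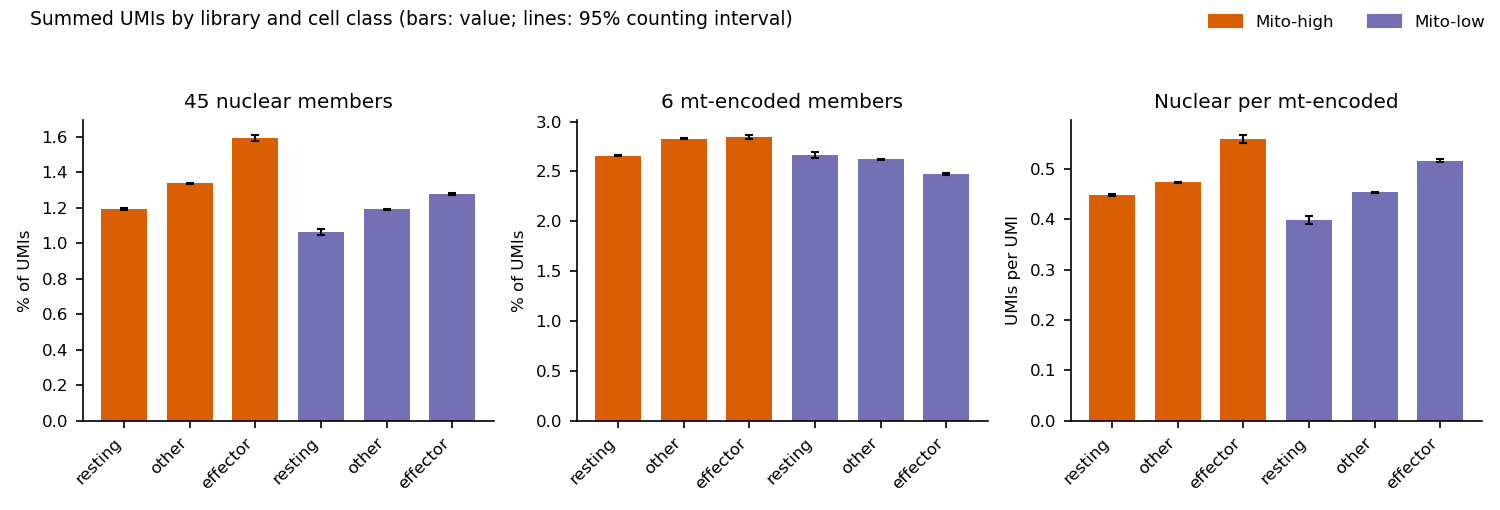
Bars give the summed UMIs of the nuclear members (left, % of UMIs), of the mt-encoded members (middle, % of UMIs) and nuclear UMIs per mt-encoded UMI (right), for resting, other and effector cells of the Mito-high and Mito-low libraries; lines are 95% counting intervals. Nuclear shares go from 1.19% to 1.59% in Mito-high and from 1.06% to 1.28% in Mito-low between resting and effector cells, while the mt-encoded share ends at 2.85% in Mito-high and 2.47% in Mito-low effector cells.

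The first comparison was of the dye populations, made within each class because the classes differ in number between the libraries. Of the nuclear members, 38 reached 20 CPM in at least 1 of the groups compared. Among effector cells 35 of the 38 had a log2 ratio of the dye-high over the dye-low library above 0, with a median of 0.35 against −0.07 over all 6032 genes at that level. Here 9 members were at least 1.5-fold higher and 0 were 1.5-fold lower, where 9.85% of all genes were that much higher and 12.4% that much lower. The 9 were Cox5a, Atp5b, Cyc1, Atp5g3, Atp5c1, Uqcr10, Atp5f1, Atp5g1 and Atp5o, with log2 ratios from 0.62 to 0.79. Among other cells the median was 0.19 against −0.14 over all genes. There 35 of 38 members were above 0, 0 were 1.5-fold higher (3.5% of all genes) and 1, Atp5md, was 1.5-fold lower (9.14%), a split that TMM scaling turned to 4 higher and 0 lower. Among resting cells the median was 0.15 against −0.04, and 34 of 38 were above 0. In resting cells 0 members were 1.5-fold apart in either direction, where 3.83% of all genes were higher and 6.12% lower. Over all kept barcodes, with classes mixed, 0 members were 1.5-fold higher (3.65% of all genes) and 1, again Atp5md, was lower (10.7%). Genes with transcripts of at most 1000 bases, a length that most members share, had medians of 0.02, 0.07 and −0.06 in resting, effector and other cells.

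Depth and proliferation moved with the dye. At least 2 of 5 cycling genes (Pclaf, Birc5, Stmn1, Mki67, Top2a) were detected in 30.9% of Mito-high effector cells and in 1.96% of Mito-low effector cells. The shares were 6.18% against 0 of 185 in resting cells and 8.62% against 1.56% in other cells. Without those barcodes the nuclear medians were 0.28 in effector, 0.10 in other and 0.070 in resting cells. Over all genes they were −0.04, −0.14 and −0.05. The number of members at least 1.5-fold higher in effector cells went from 9 to 0, with no share of all genes computed for this setting. Among barcodes of 4000 to 6000 UMIs, a range that held 31 Mito-high effector and 72 Mito-low resting cells, the medians in effector, other and resting cells were 0.065, 0.0034 and 0.12. Over all genes they were 0.08, −0.15 and −0.15 in the same barcodes. The number of members above 0 there was 25, 19 and 29 of 38. In this range the median of effector cells lay beside that of all genes, and members of other cells were evenly above and below 0. Genes of RNA quality (Gm42418, AY036118, Malat1, Neat1, Lars2) summed to between 8678 and 11894 CPM in the Mito-high classes and between 20926 and 23963 CPM in the Mito-low classes, with 3, 3 and 4 of 5 at least 1.5-fold lower in Mito-high resting, effector and other cells. The part of depth, cycling and RNA quality in the dye ratios was not tested.

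**Figure D2:**
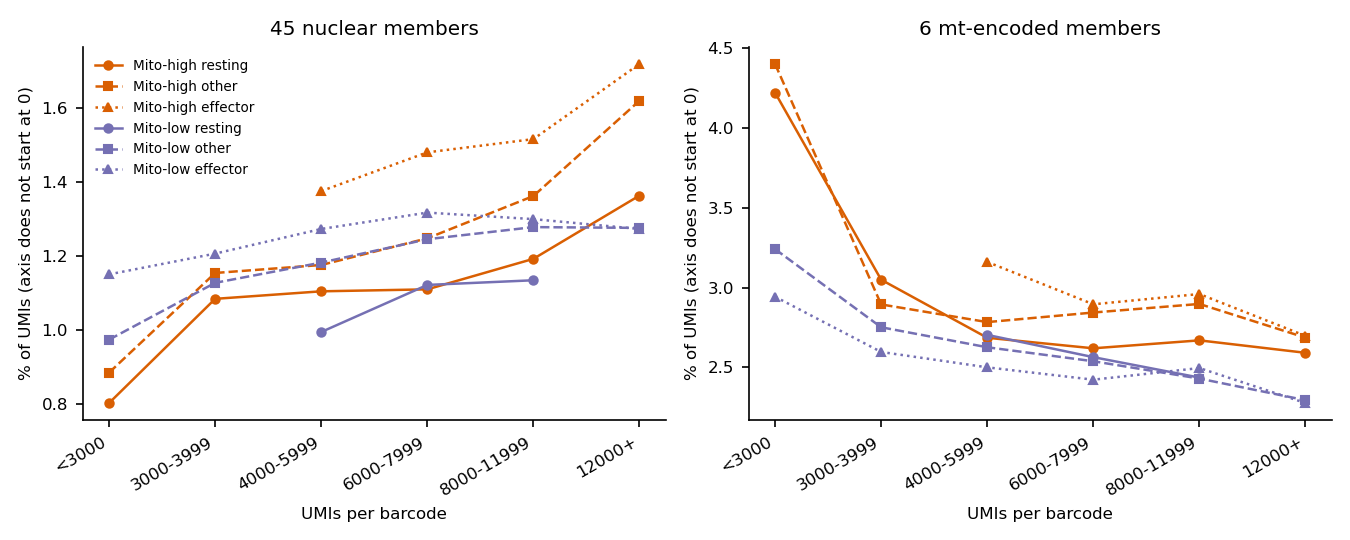
Share of UMIs (%, vertical axis not from 0) held by the nuclear members (left) and the mt-encoded members (right) in barcodes grouped by their number of UMIs, for each library and class with at least 20 barcodes in a range. The nuclear share of Mito-high other cells runs from 0.884% below 3000 UMIs to 1.62% at 12000 or more, and the nuclear effector lines lie above the resting lines in every range that holds both (4 in Mito-high, 3 in Mito-low).

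The share of nuclear members differed with the number of UMIs in a barcode. In Mito-high other cells it was 0.884% below 3000 UMIs, 1.18% from 4000 to 6000 and 1.62% at 12000 or more, and in Mito-low other cells 0.973%, 1.18% and 1.28%. In Mito-low effector cells it was highest, at 1.32%, between 6000 and 8000 UMIs and was 1.27% at 12000 or more. The mt-encoded share was largest below 3000 UMIs, at 4.4% in Mito-high other cells and 3.24% in Mito-low other cells, and was 2.69% and 2.29% at 12000 or more. Within these ranges of depth, which are wide and do not make depth equal, the order of the classes was compared again. Effector cells had a larger nuclear share than resting cells in 4 of 4 ranges in Mito-high and in 3 of 3 in Mito-low cells. Other cells lay above resting cells in 6 of 6 and 3 of 3 ranges. Effector cells lay above other cells in 4 of 4 ranges in Mito-high and in 5 of 6 in Mito-low, the exception being barcodes of 12000 UMIs or more. Between the libraries, Mito-high cells had the larger nuclear share in 2 of 3 ranges for resting, 4 of 4 for effector and 4 of 6 for other cells. Their nuclear UMIs per mt-encoded UMI were the higher in only 1 of 3, 1 of 4 and 1 of 6 ranges. For the mt-encoded members the order of the classes was not the same in both libraries, as effector cells lay above resting cells in 4 of 4 Mito-high ranges and in 1 of 3 Mito-low ranges.

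The second comparison was of effector with resting cells within a library. In Mito-high cells 37 of the 38 nuclear members were above 0, with a median log2 ratio of 0.46 against 0.22 over all genes and 0.32 over genes of short transcripts. There 9 members were at least 1.5-fold higher in effector cells (24.9% of all genes) and 0 lower (8.8%). The 9 were Uqcr10, Cox8a, Uqcrb, Cox5a, Cox5b, Cox6c, Cox6b1, Atp5g3 and Atp5j. In Mito-low cells 32 of 38 were above 0, with a median of 0.25 against 0.20 over all genes and 0.24 over short transcripts, and 1 member, Cox8a, was at least 1.5-fold higher (23.5%), with 0 lower (8.04%). The counts of 1.5-fold members were near the background in Mito-high and below it in Mito-low cells, and changed with depth. Thinned to 2000 UMIs per barcode, with classes called anew, they were 12 higher and 0 lower in Mito-high and 10 higher and 2 lower in Mito-low cells. Between 4000 and 6000 UMIs they were 8 and 1, and 7 and 0. The 1.5-fold share of all genes was not computed for these or the other alternative settings, so such counts have no background beside them. Thinning left 54 Mito-high effector and 86 Mito-low resting cells. The thinned medians were 0.39 against 0.47 over all genes in Mito-high and 0.22 against 0.06 in Mito-low cells. Normalisation by TMM, which centres the bulk of genes, moved all ratios of this comparison down by 0.27 in Mito-high and 0.14 in Mito-low cells, and the medians to 0.19 and 0.11, with 2 members higher and 1 lower by 1.5-fold in Mito-high and 1 and 1 in Mito-low cells. Between 4000 and 6000 UMIs the nuclear median in Mito-high cells was 0.27, below the 0.41 of all genes, and in Mito-low cells 0.28, above 0.15. Without cycling barcodes the medians were 0.38, with 6 members 1.5-fold higher, and 0.25, against 0.23 and 0.20 over all genes. Other cells lay between. Effector over other cells gave medians of 0.28 in Mito-high and 0.10 in Mito-low cells, and other over resting cells 0.16 and 0.14. In these 4 comparisons 0 members were 1.5-fold apart. The background was 13.3% higher and 5.73% lower for effector over other cells of the Mito-high library, with 3.35% and 1.94% for Mito-low. For other over resting cells it was 4.19% and 0.5% in Mito-high and 15.5% and 3.97% in Mito-low.

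Cytosolic ribosomal protein genes, looked up after the data were seen, had the opposite order to the summed nuclear members between resting and effector cells. They took 346922 CPM in resting and 255959 CPM in effector Mito-high cells, and 341240 and 238279 CPM in Mito-low cells, and their part in the ratios of other genes was not tested.

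By group, the highest of the 6 levels of a nuclear member was that of Mito-high effector cells for 34 of 38 members, and the lowest that of Mito-low resting cells for 27. For 4 of the 6 mt-encoded members the lowest level was that of Mito-low effector cells. Single members departed from this pattern in different ways, and these departures are described below, complex by complex.

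**Figure D3:**
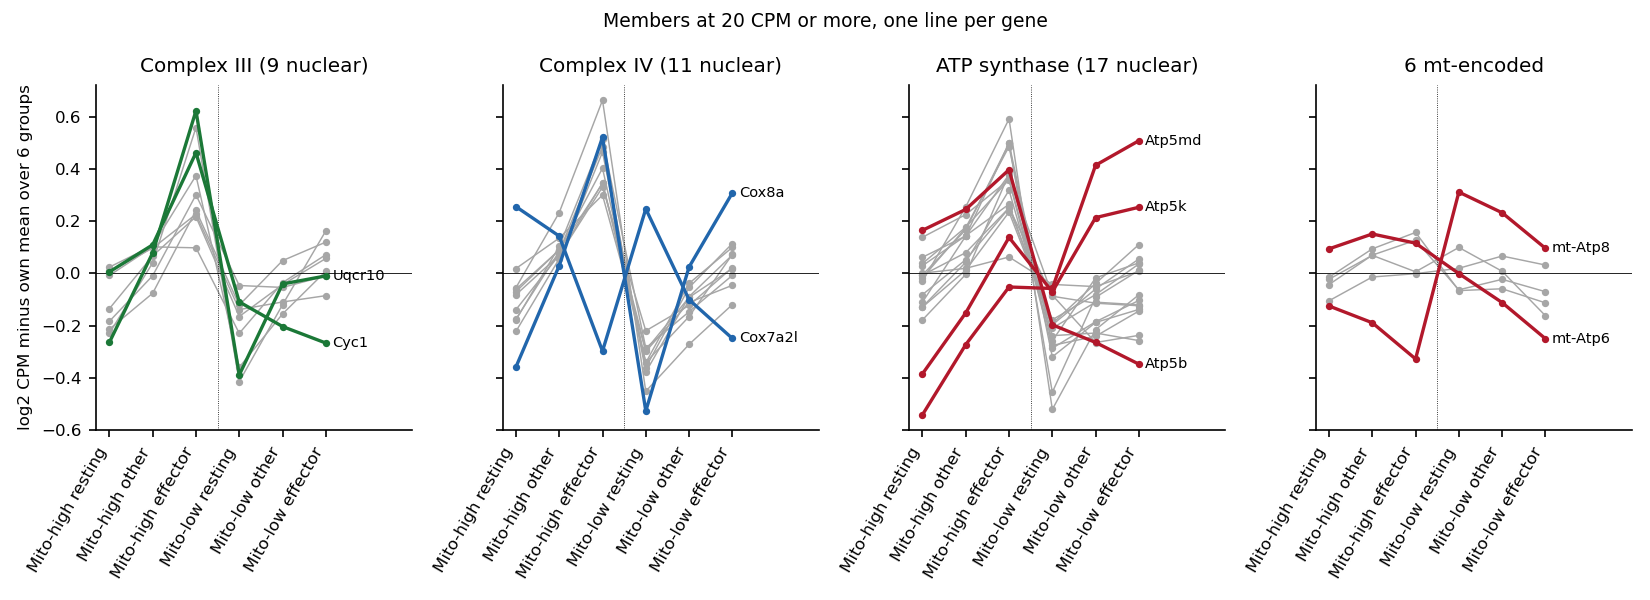
Each line is 1 member at 20 CPM or more, as log2 CPM minus its own mean over the 6 groups, with complex III, complex IV and ATP synthase subunits of the nucleus and the mt-encoded subunits in panels from left to right. Most nuclear lines are lowest in resting and highest in effector cells of each library; Cox7a2l is the reverse (498 against 339 CPM in Mito-high), and Atp5md is higher in Mito-low (282.5 to 419 CPM) than in Mito-high cells (202 to 284 CPM).

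In complex III all 9 nuclear members were measured. Their median log2 ratio of effector over resting cells was 0.46 in Mito-high and 0.23 in Mito-low cells, with 9 and 8 of them above 0. Uqcrb, the ubiquinone-binding subunit, was at 184, 223 and 319 CPM in resting, other and effector Mito-high cells and at 162, 199 and 242 CPM in Mito-low cells. It was higher in effector than in resting cells by 0.79 (0.66 to 0.92) and 0.57 (0.36 to 0.80) on the log2 scale. Uqcr10, a small subunit, was at 194, 247 and 360 CPM in Mito-high cells and 178, 227 and 232 CPM in Mito-low cells. Its excess in Mito-high effector cells, 0.64 over Mito-low effector cells, became −0.22 between 4000 and 6000 UMIs. Cyc1, cytochrome c1, which hands electrons to cytochrome c, was at 60.8, 65.4 and 83.5 CPM in Mito-high cells and at 56.1, 52.6 and 50.3 CPM in Mito-low cells. The classes thus ranked in opposite order in the libraries, with effector over resting ratios of 0.47 (0.20 to 0.71) and −0.18 (−0.54 to 0.25). The Mito-low interval includes 0. Uqcrfs1, the Rieske iron-sulfur protein, was higher in effector cells by 0.36 in both libraries, and in Mito-high cells by 0.26 to 0.37 in the 3 classes. The core subunits Uqcrc1 and Uqcrc2 had effector over resting ratios of 0.49 and 0.23 in Mito-high and of 0.02 and 0.04 in Mito-low cells. TMM scaling turned Uqcrc2 negative in both libraries and Uqcrc1 in Mito-low cells. Uqcr11 was at −0.10, −0.13 and 0.12 by dye in resting, other and effector cells, and TMM scaling turned the value in other cells positive. Cycs, the mobile carrier cytochrome c, was at 116, 130 and 166 CPM in Mito-high and 98.9, 104 and 119 CPM in Mito-low cells. Its sign depended on the setting, with ratios from −0.91 to 0.52 by dye and from −0.75 to 0.55 by class over all settings.

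In complex IV, 11 of the 18 nuclear members reached 20 CPM. Cox8a, a small membrane subunit encoded at chr19:7215153-7217616 on the minus strand of mm10, stood apart by class. It was at 468, 613 and 862 CPM in resting, other and effector Mito-high cells and at 416, 611 and 744 CPM in Mito-low cells. Both effector groups lay above both other groups, and these above both resting groups. Effector over resting ratios were 0.88 (0.80 to 0.96) and 0.83 (0.70 to 0.98), and Cox8a was past 1.5-fold in both libraries under each of the 13 settings compared, with a range of 0.61 to 1.04. By dye its ratios were 0.17, 0.01 and 0.21 in resting, other and effector cells, and their sign depended on the setting. Between 4000 and 6000 UMIs Cox8a was at −0.32 in other and −0.08 in effector cells, and thinned to 2000 UMIs at −0.16 and −0.20. No near-identical copy of its first 300 bases and no overlapping gene were found in the annotation.

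Cox7a2l, which takes part in joining complexes III and IV into supercomplexes, went against the other nuclear members. It was at 498, 460 and 339 CPM in resting, other and effector Mito-high cells and 495, 388 and 350 CPM in Mito-low cells. The ratios of effector over resting cells were −0.55 (−0.68 to −0.43) and −0.50 (−0.63 to −0.37), between −0.82 and −0.31 over all settings. On the CPM scale no other of the 38 nuclear members was below 0 in both libraries. Under TMM scaling Uqcrc2, Atp5a1, Atp5b, Atp5g1, Atp5h and Atp5mpl were too, with values between −0.30 and −0.01. A pseudogene copy with 97.2% identity exists, but it has no row among the genes in the files. Some reads of Cox7a2l may still have been lost. Its relative Cox7a2, the isoform of most tissues, was at 291, 324 and 388 CPM in Mito-high and 265, 283 and 313 CPM in Mito-low cells, in the order of the other subunits.

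Cox5a, a matrix-side subunit, was at 263, 321 and 433 CPM in Mito-high and 200, 226 and 251 CPM in Mito-low cells, and its dye ratios of 0.39, 0.51 and 0.79 in resting, other and effector cells were the largest in each class among complex IV members at 20 CPM or more. Between 4000 and 6000 UMIs Cox5a was at 0.10 in other cells, below Cox7a2l at 0.49 and Cox4i1 at 0.17, and thinned to 2000 UMIs it was at −0.06 in resting cells. Cox5b, which binds zinc, Cox6b1, on the intermembrane side, and Cox6c had effector over resting ratios of 0.70, 0.66 and 0.69 in Mito-high and 0.27, 0.45 and 0.47 in Mito-low cells. Cox4i1, the large regulatory subunit of most tissues, differed less, with 0.28 and 0.25, and was higher in Mito-high cells by 0.25 to 0.35 in the 3 classes.

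The 7 nuclear members below 20 CPM were all tissue isoforms of complex IV. Cox4i2, the isoform of lung, gave 71 UMIs in all kept Mito-high cells and 45 in Mito-low ones, which scaled to 0.79 and 0.74 CPM. Cox7a1, of heart and muscle, gave 87 and 39 UMIs, or 0.97 and 0.64 CPM. Cox6b2, of testis, gave 325 and 86 UMIs, or 3.62 and 1.42 CPM. Cox6a2 gave 1 and 3 UMIs and Cox7b2 1 and 2. Cox8b and Cox8c were at 0 in both libraries, which at 3 counts allows up to 0.0334 CPM for Mito-high and 0.0496 CPM for Mito-low. Muscle marker genes (Acta1, Ckm, Myh4, Tnnt3) summed to between 0.58 and 1.08 CPM over the groups.

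All 17 nuclear members of the ATP synthase were measured, and the dye populations differed in both directions among them. Atp5b, the catalytic beta subunit (chr10:128083273-128090391), was at 331, 350 and 389 CPM in resting, other and effector Mito-high cells and at 258, 246 and 232 CPM in Mito-low cells. All 3 Mito-high groups lay above all 3 Mito-low groups. Its log2 ratios by dye were 0.36 (0.19 to 0.54), 0.51 (0.48 to 0.54) and 0.75 (0.62 to 0.87) in resting, other and effector cells, and between 0.26 and 0.79 over all settings. Between effector and resting cells its ratio was 0.23 in Mito-high, which TMM scaling turned negative, and −0.16 in Mito-low cells.

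Atp5md, the small membrane subunit DAPIT (chr19:47083464-47090647, minus strand), was lower in Mito-high cells. It was at 202, 243 and 284 CPM in resting, other and effector Mito-high cells and at 282.5, 392 and 419 CPM in Mito-low cells. The dye ratios were −0.49 (−0.65 to −0.32), −0.69 (−0.72 to −0.66) and −0.56 (−0.70 to −0.43), below 0 under all settings. Effector cells nevertheless had more of it than resting cells in both libraries, by 0.49 and 0.56. Atp5k, the membrane subunit e, was also lower by dye, with 138, 162 and 198 CPM in Mito-high and 171, 208 and 214 CPM in Mito-low cells, and dye ratios of −0.32, −0.37 and −0.11. The interval in effector cells (−0.29 to 0.05) includes 0, and the values ran from −0.92 to −0.07 over all settings. Near-identical copies of the first 300 bases were found for both, 3 of Atp5md and 1 of Atp5k, so their counts are uncertain. Atp5mpl, another small membrane subunit, lay between 235 and 254 CPM in all 6 groups.

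The genes Atp5g1, Atp5g2 and Atp5g3 encode the same mature subunit c, whose ring turns in the membrane. All 3 were higher in Mito-high than in Mito-low cells, Atp5g1 by 0.37, 0.45 and 0.62 in resting, other and effector cells, Atp5g2 by 0.32, 0.36 and 0.46, and Atp5g3 by 0.48, 0.47 and 0.68. In effector cells of 4000 to 6000 UMIs Atp5g1 came to −0.39. By class they differed from each other, as effector over resting ratios were 0.63 and 0.43 for Atp5g3 and 0.22, negative under TMM scaling, and −0.02 for Atp5g1. Copies with at least 95% identity exist for Atp5g1 and Atp5g2 and were not found for Atp5g3. Atp5j, coupling factor of the peripheral stalk, had 0.61 and 0.46, and Atp5o, the stalk subunit that confers sensitivity to oligomycin, 0.32 and −0.16. Over all nuclear members, 14 of 45 had at least 1 such copy and 31 had none. The copies have no rows of their own among the genes in the files, and how their reads were treated is not given. Uqcrb, Cox6c, Atp5g1, Atp5g2, Atp5k, Atp5md, Atp5o, Cox7a2l, Cycs and Uqcr11 are among the 14, and their counts are uncertain. Genes on the opposite strand overlap Cox4i1, Cox5a, Cox6a2, Cox6c, Uqcrb, Uqcrc2, Uqcrh, Atp5a1, Atp5d, Atp5f1, Atp5j, Atp5l, Atp5md and Atp5o, and mt-Co1 by 3 bases. No source used here says whether strand was used in counting. On the same strand, protein-coding genes without rows in the files overlap Cox4i1 by 5986 bases and Atp5o by 1769 bases.

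**Figure D4:**
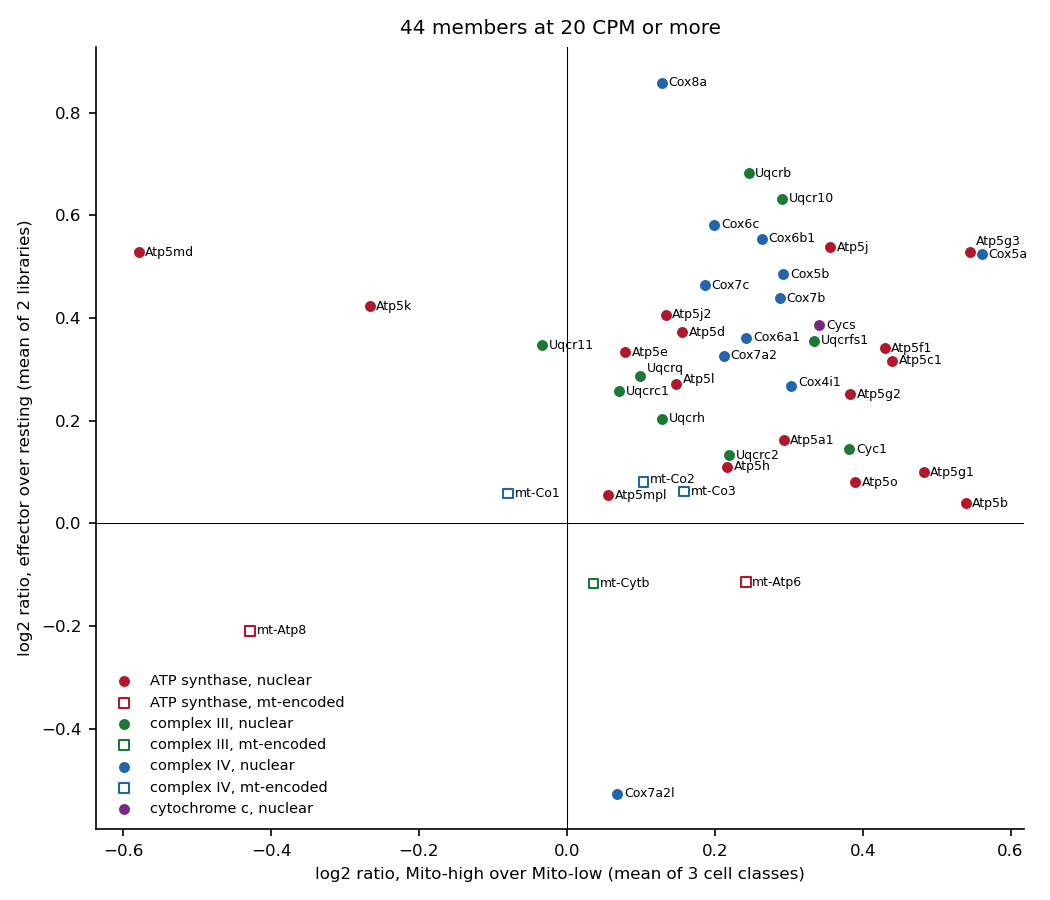
Each point is 1 member, by its log2 ratio between the dye populations, Mito-high over Mito-low (mean of 3 classes, horizontal axis) and of effector over resting cells (mean of 2 libraries, vertical axis), coloured by complex, with filled points for nuclear and open squares for mt-encoded members. Cox8a stands at the top with 0.86 by class and 0.13 by dye, Atp5b far to the right with 0.54 by dye and 0.04 by class, Atp5md at the left with −0.58 by dye and 0.53 by class, and Cox7a2l at the bottom with −0.53 by class; both axes use the same effector and resting groups.

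On the CPM scale 0 of the 6 mt-encoded members were 1.5-fold apart in any of these comparisons. Between 0.5% and 24.9% of all genes were that far apart in a given direction, so a count of 0 among 6 genes says little. The widest range over the 6 groups among them was that of mt-Atp8, at 0.64 on the log2 scale. mt-Co1, the catalytic subunit with a copper centre, was at 5017, 5345 and 5393 CPM in resting, other and effector Mito-high cells and 5471, 5652 and 5518 CPM in Mito-low cells. mt-Co2, which also binds copper, was at 4538, 4908 and 5107 CPM and 4475, 4602 and 4453 CPM, and mt-Co3 at 6045, 6520 and 6811 CPM and 5834, 5863 and 5647 CPM. mt-Cytb, the haem-bearing core of complex III, was at 3719, 3963 and 3794 CPM and at 4048, 3799 and 3375 CPM. On the CPM scale the 3 mt-Co transcripts of Mito-high cells were lowest in resting and highest in effector cells, though TMM scaling turned their effector over resting ratios negative, while in Mito-low cells mt-Cytb was highest in resting and lowest in effector cells. The median ratio of effector over resting cells over the 6 was 0.07 in Mito-high, which TMM scaling turned to −0.20, and −0.14 in Mito-low cells. By dye it was −0.05 in resting cells, which TMM scaling turned to 0.024, 0.18 in effector and 0.08 in other cells.

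The counts of mt-Atp6 and mt-Atp8 went in opposite directions by dye. These genes lie next to each other and share 43 bases in different reading frames. mt-Atp8 spans chrM:7766-7969 and mt-Atp6 chrM:7927-8607, both on the plus strand. The end of mt-Atp8 is shown because the shared bases bear on both counts, with the start codon of mt-Atp6 in capitals (chrM:7910-7969, mm10):
mt-Atp8 end: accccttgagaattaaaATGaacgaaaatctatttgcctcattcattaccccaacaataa
mt-Atp6 was at 7163, 7452 and 7272 CPM in resting, other and effector Mito-high cells and at 6707, 6208 and 5639 CPM in Mito-low cells, so that every Mito-high group lay above every Mito-low group. mt-Atp8 was at 90.2, 86.2 and 78.3 CPM in Mito-high and 122, 116 and 105 CPM in Mito-low cells, with every Mito-high group below every Mito-low group. The dye ratios in resting, other and effector cells were 0.09, 0.26 and 0.37 for mt-Atp6 and −0.45, −0.42 and −0.42 for mt-Atp8. Over all settings mt-Atp8 ran from −0.88 to −0.26. How UMIs in the shared bases were assigned is not given in the sources used here, so neither count is certain. Because the genes overlap on the same strand, their counts may not be levels of separate RNAs.

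**Figure D5:**
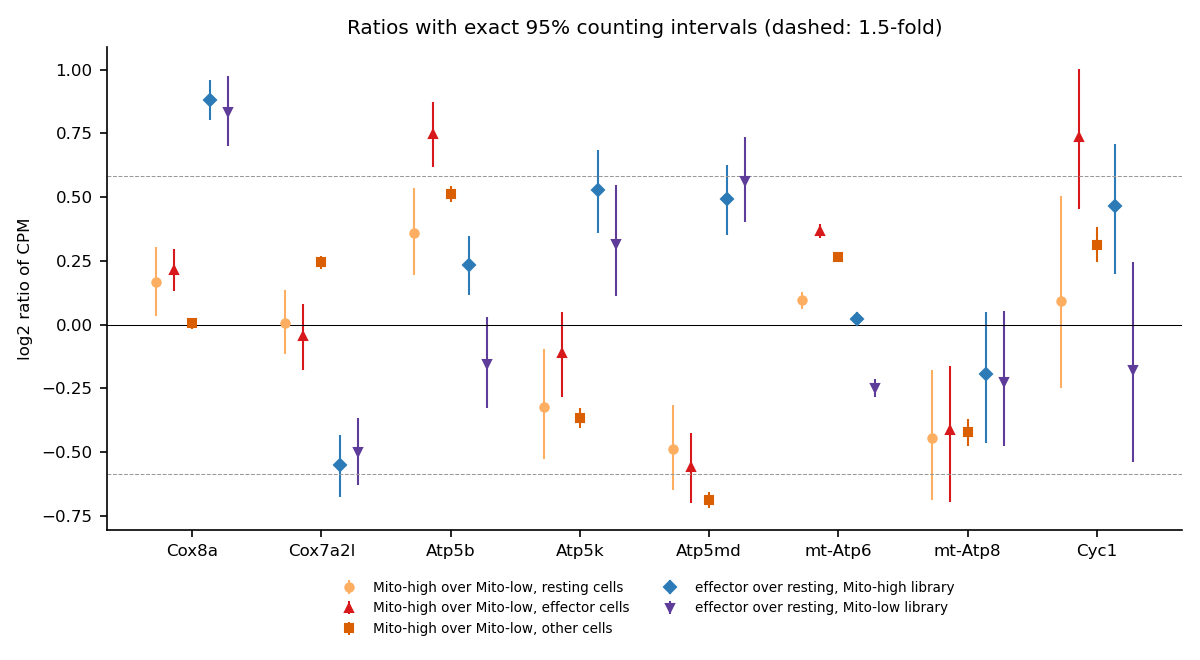
Log2 ratios of CPM with exact 95% counting intervals for 8 members, 3 ratios of Mito-high over Mito-low (resting, effector, other cells) and 2 of effector over resting cells (Mito-high, Mito-low library); dashed lines mark 1.5-fold. Cox8a is at 0.88 and 0.83 and Cox7a2l at −0.55 and −0.50 by class, while Atp5b (0.36 to 0.75), Atp5md (−0.69 to −0.49) and mt-Atp8 (−0.45 to −0.42) differ by dye in all 3 classes.

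Genes that act around these enzymes gave the following counts. Of 24 assembly and copper delivery factors of complex IV, 18 were measured between effector and resting Mito-high cells, with 8 at least 1.5-fold higher (24.9% of all genes), 0 lower (8.8%) and a median of 0.54 against 0.22 over all genes. In Mito-low cells 3 of 16 were higher, below the background of 23.5%, and 0 lower (8.04%), with a median of 0.41 against 0.20. Cmc2, an assembly factor of complex IV, was higher in effector cells by 1.40 and 1.07, and Cox17, which delivers copper to the complex, by 1.15 and 0.92 (0.66 to 1.22). Cox17 was at 124, 165 and 276 CPM in resting, other and effector Mito-high cells and at 103, 173 and 198 CPM in Mito-low cells. Between the dye populations the same list had medians of 0.11, 0.23 and 0.01 in resting, effector and other cells. Pet100, another assembly factor, was lower in Mito-high cells, at −0.71 in resting and −0.62 in other cells. In effector cells the largest ratios of the list were those of Cmc2 at 0.86 (0.45 to 1.23) and Cox19 at 0.70. Of the 6 assembly factors of complex III, 3 were measured and 0 were 1.5-fold apart, with Uqcc2 at 0.50 and Ttc19 at −0.54 by dye in effector cells. Of 6 ATP synthase factors at most 2 were measured, and 0 were 1.5-fold apart. These counts rest on few genes. Beside them, 9.85% of all genes were higher and 12.4% lower by dye in effector cells. By class in Mito-high cells the shares were 24.9% and 8.8%.

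Genes that copy and express mitochondrial DNA had medians of 0.17, 0.06 and 0.03 by dye in resting, effector and other cells. In effector cells 1 of 11 was 1.5-fold apart, where 9.85% of all genes were that much higher and 12.4% that much lower. This was Tfb2m, a mitochondrial transcription factor, at −0.65. By class their medians were 0.11 and 0.25, with Slirp, which stabilises mitochondrial messenger RNA, at 0.76 and 0.62. Tfb2m was at −0.65 by class in Mito-high cells, and Polg2, a subunit of the mitochondrial DNA polymerase, at 0.80 in Mito-low cells. The 7 mt-encoded subunits of complex I had medians of −0.08, −0.20 and −0.12 by dye in resting, effector and other cells. Of these 0 of 7 were 1.5-fold apart, where 3.83%, 9.85% and 3.5% of all genes were higher and 6.12%, 12.4% and 9.14% lower. The largest ratios were those of mt-Nd4l, at −0.49, −0.51 and −0.52, beside −0.45, −0.42 and −0.42 for mt-Atp8. Next came mt-Nd6 at 0.32 (−0.12 to 0.90) in resting, mt-Nd5 at −0.33 in effector and mt-Nd1 at 0.18 in other cells. Among 9 regulators of mitochondrial biogenesis Myc was higher in Mito-high cells by 0.46, 0.99 and 0.93 in resting, other and effector cells. Gabpb1, which encodes a subunit of the factor GABP that binds promoters of respiratory genes, was lower in Mito-high other and effector cells, at −0.85 and −0.78. In resting cells it was not among the 2 largest ratios of the list, which were those of Myc and of Nrf1 at −0.20 (−0.49 to 0.13).

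The genes whose 6 levels were most like the summed nuclear members, of 2209 genes considered, were Rac1, Nedd8, Ndufa1, Uqcc3 and Snx3, with root mean square distances of 0.02 to 0.04 on the log2 scale. Those most like the summed mt-encoded members were Mrpl24, Cnp, Srsf7, Eif2s3x and Larp4, with distances of 0.03 to 0.04. Likeness is over 6 groups from 2 libraries and is a description only.

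Promoters of 34 of the 45 nuclear members were found in a RefSeq table for build GRCm38.p6, as the 250 bases before and 50 after each start. The motif of the respiratory regulator NRF1 was present on either strand in 7 of the 34 (20.6%) and in 4.78% of all 27025 promoters of this length. The GABPA motif, CCGGAAGT, was in 4 (11.8%), against 4% of all. The YY1 motif AAGATGGCG was in 1, Atp5j2, and the ESRRA motif TCAAGGTCA in 1, Atp5g3, against 1.49% and 0.407% of all. The following 30-base windows on the gene's strand, with the motif in capitals, are shown because they belong to members with opposite dye ratios, Atp5g2 and Atp5k, and to members of complexes IV and III and the subunit c family; the ESRRA letters stand as their reverse complement.
Atp5g2 (NRF1, chr15:102671070-102671099, minus strand): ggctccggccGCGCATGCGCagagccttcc
Atp5k (NRF1, chr5:108434430-108434459, minus strand): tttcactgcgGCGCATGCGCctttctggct
Cox6a1 (NRF1, chr5:115349101-115349130, minus strand): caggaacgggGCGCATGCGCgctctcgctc
Uqcr11 (GABPA, chr10:80406869-80406898, minus strand): ttctctcctccCCGGAAGTagatgtcaatg
Atp5g3 (ESRRA, chr2:73911359-73911388, minus strand): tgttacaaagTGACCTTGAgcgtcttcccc
The first 3 hold the same 10 letters. The NRF1 motif was also found in Atp5g3, Atp5h, Atp5o and Uqcrc1, and the GABPA motif in Atp5h, Cox8a and Uqcrh. Atp5g2 was higher in Mito-high cells by 0.32 to 0.46 and Atp5k was at −0.37 to −0.11, so the letters went with both directions. A match describes these letters only and says nothing of binding.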

How the data were processed

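Single-cell 5′ gene expression was measured in 2 libraries of sorted mouse Treg cells, 1 Mito-high and 1 Mito-low. The deposited files hold raw UMI counts per gene and barcode, made by the authors with Cell Ranger 7.1.0 on mm10, per the file headers and the submitters' processing notes, which also name Seurat 4.3.0.1. No source used here gives the annotation, the strand and intron settings or the barcode filter. No doublet caller was run. The libraries held 12352 and 11901 barcodes and 89996794 and 60688904 UMIs; 120 and 209 barcodes had too few genes and 15 and 13 too many mt- UMIs.

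Counts were summed per library and class and scaled to CPM. Log2 ratios used 1 UMI added to each sum and exact conditional binomial 95% intervals; shares have exact Clopper-Pearson and sums exact Poisson intervals. These cover counting error only. A gene had to reach 20 CPM in either group of a comparison, and 1.5-fold is a size for description, with no test. Named genes follow a rule: all mt-encoded members, Cyc1 and Cycs, in each complex the 2 highest and 2 lowest by dye over all barcodes and by class, members 1.5-fold apart, isoform families, and up to 2 genes per list with the largest ratio; others appear only as markers or holders of a motif, copy or overlap. Members and lists were chosen with earlier results of these data known.

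Alternatives covered TMM scaling (edgeR 4.0.16, R 4.3.3), level and cell filters, class rules, thinning to 2000 UMIs (139 and 491 shallower barcodes left out), depth ranges, weighting, Gm42418 and cycling barcodes. Barcodes shared by both libraries, the depth window without cycling barcodes, depth ranges, short transcripts and ribosomal protein genes were added after the data were seen. Copies were searched with BLAST 2.17.0 among the pseudogene transcripts of GENCODE M21 (at least 95% identity over 100 bases). The ratio script was tested on simulated data.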

Additional observations from a re-analysis of the deposited data

Results flagged for a closer look

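Pairs of groups whose mt-encoded ratios had opposite signs, with counting intervals that leave out 0 (for medians, those of the middle members), are given here as values. The differences were not tested, since each group is 1 library. The median ratio of Mito-high over Mito-low over the 6 mt-encoded members was −0.05 in resting and 0.18 in effector cells, a difference of −0.23, and 0.08 in other cells, a difference of −0.13. For mt-Cytb the ratio was −0.12 in resting against 0.17 in effector cells (difference −0.29) and 0.06 in other cells (difference −0.18). For mt-Co3 the ratio of effector over resting cells was 0.17 in Mito-high and −0.05 in Mito-low cells, a difference of 0.22. TMM scaling turns the resting median to 0.024 and the Mito-high ratio of mt-Co3 negative, so that these pairs no longer differ in sign, while those of mt-Cytb do. Between 4000 and 6000 UMIs mt-Cytb was at −0.0027 in other and −0.086 in resting cells, so that pair has the same sign there.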

How the results depend on the processing

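No paired analysis was possible because each group is 1 library without replicate numbers, and no library could be left out. All values are log2 ratios, given as medians over the nuclear or the mt-encoded members, and the cause of each shift was not tested. TMM scaling adds the same shift to every gene: the nuclear median moved to 0.35 by dye in other cells and to 0.19 by class in Mito-high cells, and the mt-encoded median to 0.024, 0.23 and 0.24 by dye in resting, effector and other cells and to −0.20 by class in Mito-high cells. Thinned to 2000 UMIs, the values by dye were 0.11 (nuclear, other), 0.13 (mt-encoded, effector) and 0.043 (mt-encoded, other). Between 4000 and 6000 UMIs the nuclear medians by dye were 0.065 in effector and 0.0034 in other cells and 0.27 by class in Mito-high cells, and the mt-encoded ones 0.30 and 0.017 by dye and 0.19 by class. Without cycling barcodes in that range they were 0.034, 0.0014, 0.26, 0.30, 0.017 and 0.18 in the same order. Without cycling barcodes at any depth, other cells by dye had medians of 0.10 (nuclear) and 0.056 (mt-encoded), against −0.14 over all genes. The mt-encoded median by class in Mito-high cells was then 0.15. With barcodes weighted alike the mt-encoded median by dye in other cells was 0.030, and with resting cells at 2 Igfbp4 UMIs or more that in resting cells was −0.0070. In the 4000 to 6000 range and in the same range without cycling barcodes, Uqcr10 reversed to −0.22 and −0.31 and Atp5g1 to −0.39 and −0.35 in effector cells by dye. Reversal was recorded only for ratios at least 1.5-fold in the main values. Between 4000 and 6000 UMIs the nuclear members above 0 by dye went from 35 to 25 of 38 in effector cells. They went from 35 to 19 in other and from 34 to 29 in resting cells. Counts of 1.5-fold members changed with these settings, by dye in effector cells from 9 higher and 0 lower to 4 and 2 between 4000 and 6000 UMIs and to 0 and 0 without cycling barcodes, and by class in Mito-high cells to 2 and 1 under TMM scaling and in Mito-low cells from 1 and 0 to 7 and 0 between 4000 and 6000 UMIs. Thinned to 2000 UMIs they were 2 and 1 by dye in effector cells, and by class 12 and 0 in Mito-high and 10 and 2 in Mito-low cells. The 1.5-fold share of all genes was not computed under these settings, so no background stands beside these counts. The other filters left all 10 medians within the counting interval of a typical member. Of 38 nuclear members, those with the same sign under every setting numbered 20, 22 and 21 by dye in resting, effector and other cells, and 26 and 28 by class. Precision is limited by 165 Mito-high effector and 185 Mito-low resting cells, and by having 1 library per group.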
